A study of Mus musculus with 12 samples.

Results

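The genes described here are 10 cyclic nucleotide phosphodiesterases, Pde8a, Pde8b, Pde4a, Pde4b, Pde4d, Pde7a, Pde1a, Pde1b, Pde2a and Pde10a, out of 17656 genes measured in the medial prefrontal cortex (mPFC) of mice. They were chosen by name from the phosphodiesterase superfamily, with earlier results of these data known. Each was read from probe sets annotated to that gene alone, with the probe set brightest over the 12 arrays standing for the gene. All 10 were measured, and none had a value at the noise level on any array.

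The study asked how repeated social stress changes gene expression in the mPFC, and compared 6 mice that went through chronic social defeat (CSD) with 6 homecage (HC) mice on 1 array each. All were adult male C57BL/6 mice labelled wild type, with no age in weeks given in the sources used here. CSD mice lived for 14 days beside an aggressive CD-1 male behind a perforated partition and met it for 5 min per day, with tissue collected 24 h past the final defeat. HC mice were housed in groups and not defeated. Mice of both groups took a social interaction test, in which a CD-1 male sat in a wire cage, and a light/dark test, and CSD mice entered the stressed cohort by these tests, so that this group is a selected one. Brains were perfused with saline in both groups, and the white matter tract called forceps minor guided where the cortex was cut. The arrays, of the type Affymetrix Mouse Gene 1.0 ST, each took labelled cDNA made from 200 ng of total RNA and read a gene with many short probes along its exons.

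Phosphodiesterases hydrolyse the second messengers cAMP and cGMP, and so end the signal that adenylyl and guanylyl cyclases start. The families differ in substrate and control. PDE4, PDE7 and PDE8 act on cAMP, PDE1 is switched on by calcium and calmodulin, PDE2 is stimulated by cGMP, and PDE10A, which accepts both messengers, is best known from the medium spiny neurons of the striatum.

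Pde8a was the only one of the 10 that passed a test with a fold limit, and it was lower in CSD mice, by 0.47 on the log2 scale of the deposited values. Pde4b and Pde8b were lower by smaller amounts and stayed under the fold limit, and the other 7 genes did not pass at either level. Pde8b lost its unadjusted p under 0.05 in 7 of the 12 fits that each left out 1 array. At an adjusted p under 0.05 (limma, Benjamini-Hochberg over all 29838 probe sets kept) with a fold change of at least 1.2, 0 of the 10 were called, as were 0 of all genes (0%). The smallest adjusted p of any probe set was 0.0673, and 2516 probe sets had an unadjusted p under 0.05. By the unadjusted p (under 0.05) and that fold limit, 1 of the 10 was lower, against 106 of all genes (0.6%), and 0 were higher, against 14 of all genes (0.0793%). Without the fold limit 3 were lower, against 1151 genes (6.52%), and 0 were higher, against 334 (1.89%). In 2 of the 10 genes every CSD array lay below every HC array, which was so for 165 genes (0.935%). The mean was lower in CSD for 6 of the 10 and for 57.1% of all genes, and the median difference was -0.01 both over the 10 and over all genes.

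**Figure D1:**
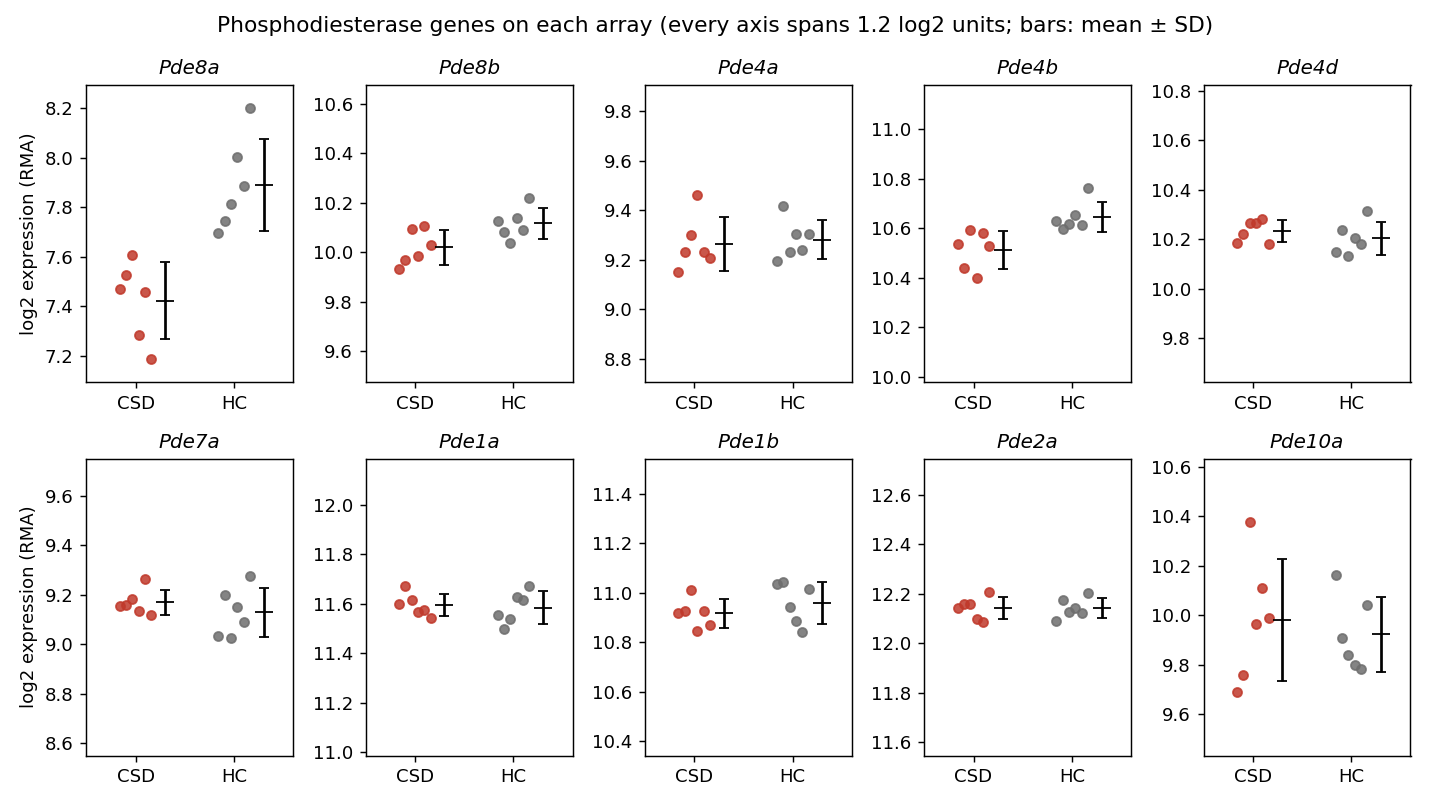
Log2 expression of the 10 phosphodiesterases on each array, with CSD (red) at the left and HC (grey) at the right of each panel, and the mean ± SD of the 6 arrays beside the points. Every axis spans the same 1.2 log2 units, and only Pde8a and Pde4b show all 6 CSD arrays below all 6 HC arrays.

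PDE8 enzymes have a high affinity for cAMP and are not blocked by the common inhibitor IBMX. Pde8a (probe set 10554521) had log2 values with a lowest of 7.19, a median of 7.46 and a highest of 7.61 in CSD mice, against 7.70, 7.85 and 8.20 in HC mice. The ranges did not overlap, and the highest CSD array was below the lowest HC array. The means were 7.42 ± 0.16 in CSD and 7.89 ± 0.19 in HC (SD, n = 6 each). The log2 difference was -0.47 (SE 0.09, 95% interval -0.67 to -0.27), a fold of 1.38, with a limma adjusted p of 0.132 and an exact permutation p of 0.00216. That p, two-sided and over all splits of the arrays into 6 and 6, is the smallest this design can give. The groups also stayed apart with the arrays centred on their medians and after quantile normalization. Leaving out each array in turn gave differences from -0.51 to -0.41, all past the unadjusted p and the fold limit.

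Another result moved with Pde8a. Of 13 measured markers of mature oligodendrocytes, the cells that form myelin, 13 were lower in CSD by the unadjusted p and the fold limit. The share over all genes was 0.6%, and the median difference of the markers was -0.58. The mean log2 level of these markers ran between 9.23 and 9.78 on CSD arrays, against 9.81 and 10.39 on HC arrays, so that it did not overlap between the groups. Mog, a protein of the outer myelin surface, differed by -0.84 (adjusted p = 0.0986), Trf, which carries iron, by -0.72 (adjusted p = 0.0986), and Ermn, which codes for the cytoskeletal myelin protein ermin, by -0.82 (adjusted p = 0.132). In bulk tissue, fewer cells of a type and less RNA per cell cannot be told apart.

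Within each group, Pde8a was higher on the arrays where these markers were higher. In CSD mice Pearson's r was 0.899 (exact permutation p = 0.0111, adjusted 0.0222 over 4 relations) and Spearman's rho was 0.943 (exact p = 0.0167, adjusted 0.0667). In HC mice r was 0.892 (exact permutation p = 0.0111, adjusted 0.0222) and rho was 0.886 (exact p = 0.0333, adjusted 0.0667). Pde8a and this list were paired with earlier results known, and over all 180 relations of the 10 genes with 9 marker lists in each group the adjusted p of r was 0.333 in CSD and 0.333 in HC. Without the 2 arrays farthest from the median of the markers, r was 0.881 in CSD and 0.941 in HC. With the marker mean as a covariate, a fit added after seeing the data, Pde8a changed by 0.66 log2 units per log2 unit of the markers (SE 0.11, adjusted p = 0.0808). The difference between the groups was then -0.07 (SE 0.08, 95% interval -0.25 to 0.11), and the call was lost. Since the marker levels of the groups did not overlap, this fit extends each group's line past its own arrays, and the part of the markers in the difference of Pde8a cannot be told apart from that of defeat.

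Pde8b (probe set 10411171) codes for the other PDE8 enzyme, which is known from brain and endocrine tissues. Its log2 values had a lowest of 9.93, a median of 10.01 and a highest of 10.10 in CSD mice, against 10.04, 10.11 and 10.22 in HC mice. The groups overlapped, with 4 of the 6 CSD arrays below the lowest HC array and all 6 below the HC mean. The log2 difference was -0.10 (SE 0.04, 95% interval -0.19 to -0.01), with a limma adjusted p of 0.555 and an exact permutation p of 0.0346. The unadjusted limma p came to 0.0529 to 0.0851 without HC replicate 1, 4 or 6 or CSD replicate 2, 6, 8 or 10, and to 0.398 with the oligodendrocyte markers as a covariate. The difference of Pde8a went further down than that of its paralog. Taken on each array, the quantity Pde8a minus Pde8b differed between CSD and HC by -0.37 log2 units, with SDs of 0.16 in CSD and 0.14 in HC (exact permutation p = 0.00216, n = 6 each). Every CSD array was below every HC array, but only just, the highest CSD array at -2.441 and the lowest HC array at -2.429. This pair was chosen with earlier results known. Within groups, Pde8b had a correlation with the oligodendrocyte marker mean of 0.19 (Pearson's r over 12 arrays with each group centred on its mean), where Pde8a had 0.895.

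PDE4 enzymes are the cAMP-specific phosphodiesterases that rolipram inhibits, and they are abundant in brain. Pde4b (probe set 10506335) had log2 values with a lowest of 10.40, a median of 10.53 and a highest of 10.59 in CSD mice, against 10.60, 10.62 and 10.76 in HC mice. The groups did not overlap but came close, the highest CSD array lying just under the lowest HC array. The log2 difference was -0.13 (SE 0.04, 95% interval -0.23 to -0.04), a fold of 1.10, with a limma adjusted p of 0.399 and an exact permutation p of 0.00216. The separation held after quantile normalization. With the arrays centred on their medians the groups overlapped (exact permutation p = 0.0173). With the oligodendrocyte markers as a covariate, the difference of Pde4b was -0.07 (SE 0.07, unadjusted limma p 0.348). Its unadjusted p stayed under 0.05 in 12 of the 12 fits that each left out 1 array.

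Pde4a (probe set 10583551) and Pde4d (probe set 10407097), which code for further cAMP-specific enzymes, showed no difference beyond the spread of the arrays. Pde4a ranged between 9.15 and 9.46 with a median of 9.23 in CSD, against 9.20 to 9.42 with a median of 9.27 in HC. Its difference was -0.02 (95% interval -0.14 to 0.10, exact permutation p = 0.738). Pde4d ranged between 10.18 and 10.28 with a median of 10.24 in CSD, against 10.13 to 10.31 with a median of 10.19 in HC. Its difference was 0.03 (95% interval -0.05 to 0.11, exact permutation p = 0.361), and its 2 dimmer probe sets gave 0.06 (SE 0.07) and 0.14 (SE 0.10). The 3 PDE4 genes among the 10 thus had differences of both signs, and of these only the interval of Pde4b left out 0.

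Pde7a (probe set 10497399), the remaining gene of a cAMP-specific enzyme, ranged between 9.12 and 9.26 with a median of 9.16 in CSD, against 9.02 to 9.27 with a median of 9.12 in HC. The CSD arrays all lay inside the HC range. The difference was 0.04 (95% interval -0.06 to 0.14, exact permutation p = 0.394).

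The calcium-dependent enzymes link cyclic nucleotide breakdown to neuronal activity. Pde1a (probe set 10484283) ranged between 11.54 and 11.67 with a median of 11.59 in CSD, against 11.50 to 11.67 with a median of 11.58 in HC, and the CSD arrays lay inside the HC range. The difference was 0.01 (95% interval -0.07 to 0.09, exact permutation p = 0.762). Pde1b (probe set 10427369) ranged between 10.85 and 11.01 with a median of 10.92 in CSD, against 10.84 to 11.04 with a median of 10.98 in HC. These arrays overlapped as well, and the difference was -0.04 (95% interval -0.14 to 0.05, exact permutation p = 0.323).

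Pde1a had no detectable difference between the groups, yet it varied with the oligodendrocyte markers inside them. This relation was picked after seeing the values of 180 relations, 10 genes by 9 marker lists by group, of which none passed adjustment over them. In CSD mice r was 0.949 (exact permutation p = 0.00278, adjusted 0.333) and rho was 1.0 (exact p = 0.00278, adjusted 0.5). In HC mice r was 0.911 (exact permutation p = 0.025, adjusted 0.45) and rho was 0.886 (exact p = 0.0333, adjusted 0.583). Without the 2 farthest arrays r was 0.994 in CSD and 0.884 in HC. In the fit with the marker mean as a covariate, Pde1a changed by 0.22 log2 units per log2 unit of the markers (SE 0.07, adjusted p = 0.327), where Pde8a changed by 0.66. At a given marker level its CSD minus HC difference was 0.14 (SE 0.05, 95% interval 0.04 to 0.25, unadjusted limma p 0.0113, adjusted p = 0.622). Of all genes, 1.32% were higher at an unadjusted p under 0.05 in that fit. The value of Pde1a again rests on marker ranges that do not overlap. Over the 12 arrays with groups centred, the r between Pde8a and Pde1a was 0.849.

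**Figure D2:**
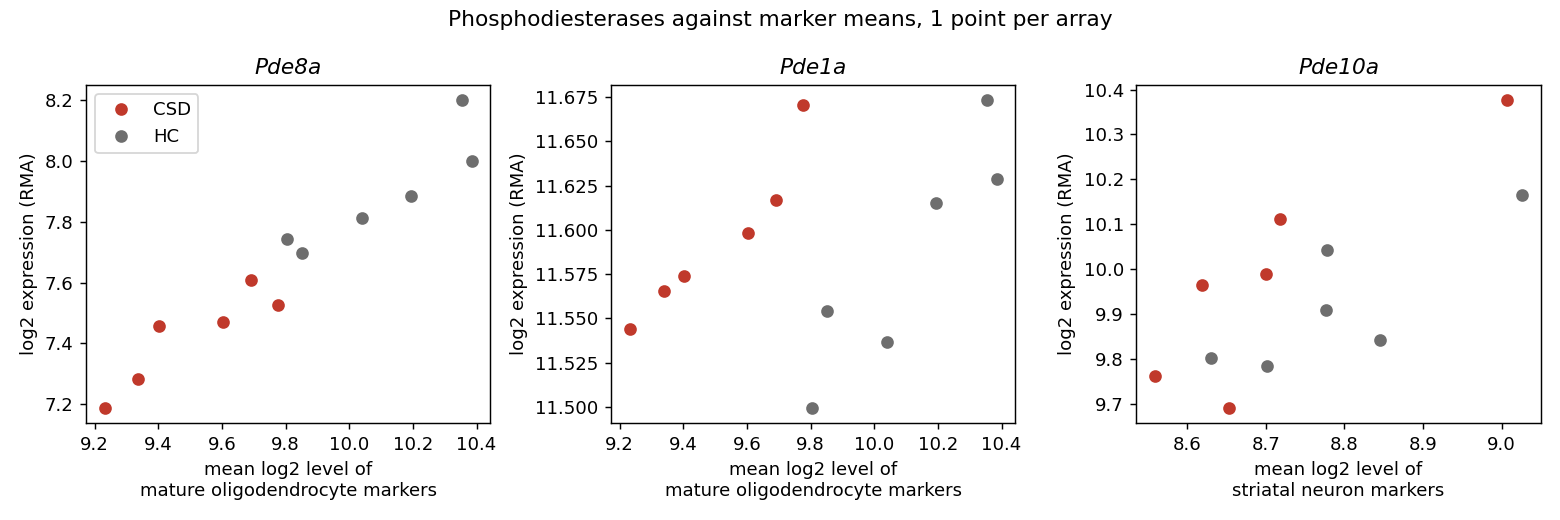
Log2 expression of Pde8a and Pde1a against the mean log2 level of the mature oligodendrocyte markers, and of Pde10a against that of the striatal neuron markers, 1 point per array, with CSD in red and HC in grey. For both Pde8a and Pde1a the CSD points lie to the left of the HC points (marker means of 9.23 to 9.78 in CSD, against 9.81 to 10.39 in HC), and only for Pde8a do they also lie below all of them.

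Pde2a (probe set 10555510), whose product breaks down cAMP faster when cGMP binds to it, ranged between 12.09 and 12.21 with a median of 12.15 in CSD, against 12.09 to 12.20 with a median of 12.14 in HC. The groups covered nearly the same range. The difference was -0.0013, with a 95% interval of -0.07 to 0.07 (exact permutation p = 0.959), the narrowest interval among the 10.

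Pde10a (probe set 10441680) had the widest interval of the 10. Its log2 values had a lowest of 9.69, a median of 9.98 and a highest of 10.38 in CSD mice, against 9.78, 9.88 and 10.16 in HC mice. CSD arrays lay both below and above the HC range, 2 below it and 1 above it. The difference was 0.06 (SE 0.11, 95% interval -0.18 to 0.29, exact permutation p = 0.639). It turned to -0.02 without CSD replicate 7, the highest array.

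Pde10a went with the mean of a list of markers of striatal medium spiny neurons, neurons of a region outside the mPFC. Whether these markers came from striatal or from cortical cells was not tested. In CSD mice r was 0.875 (exact permutation p = 0.0444, adjusted 0.0593) and rho was 0.829 (exact p = 0.0583, adjusted 0.0778). In HC mice r was 0.809 (exact permutation p = 0.0722, adjusted 0.0722) and rho was 0.771 (exact p = 0.103, adjusted 0.103). Without the 2 farthest arrays r was lower, at 0.529 in CSD and 0.25 in HC. With 4 arrays left per group, over a narrower marker range, these values cannot show whether the relation rests on the arrays left out. Over the 180 relations the adjusted p of r was 0.544 in both groups. Other lists gave values as high. In CSD mice the r of Pde10a with astrocyte markers was 0.916 (exact permutation p = 0.0306, adjusted 0.5 over the 180), against 0.594 in HC mice. In HC mice its rho with inhibitory neuron markers was 0.829 (exact p = 0.0583, adjusted 0.583), against 0.371 in CSD mice. On CSD replicate 7 and HC replicate 1 the 12 measured striatal markers had their highest means, 9.01 and 9.03, and Pde10a its highest values in each group, 10.38 and 10.16. The marker mean ran between 8.56 and 9.01 in CSD, against 8.63 and 9.03 in HC, and no marker was at noise on all arrays. Of the 12, 11 had a lower mean in CSD, against 57.1% of all genes. The median difference of the list was -0.075, where Pde10a had 0.058. Of the 12, 1 (Drd1, a dopamine receptor, by -0.16, adjusted p = 0.476) was lower at an unadjusted p, against 6.52% of all genes. The transcription factors Isl1 and Six3 had differences of -0.21 (adjusted p = 0.734) and -0.09 (adjusted p = 0.804).

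**Figure D3:**
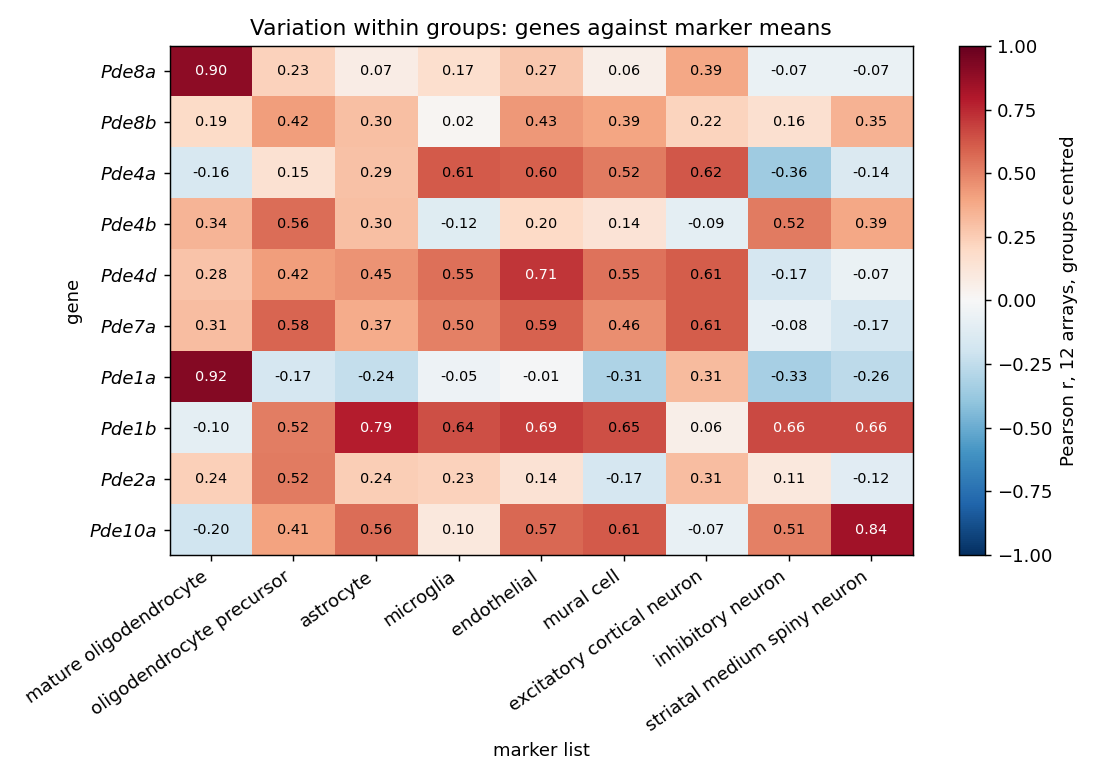
Pearson's r over 12 arrays, with each group centred on its mean, of the 10 phosphodiesterases (rows) with the mean level of 9 cell type marker lists (columns), from -1 (blue) to 1 (red). The values of 0.90 for Pde8a and 0.92 for Pde1a with mature oligodendrocytes and 0.84 for Pde10a with striatal neurons are the highest 3, and these relations share arrays and are given without a test.

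The markers of other cells moved less than those of mature oligodendrocytes, and none of them passed with the fold limit. At an unadjusted p, 4 of 9 markers of oligodendrocyte precursors were lower, as were 2 of 9 of astrocytes, 2 of 9 of microglia and 1 of 9 of endothelial cells. No marker of inhibitory neurons (0 of 10), excitatory cortical neurons (0 of 9) or mural cells (0 of 10) was. Of all genes, 6.52% were lower at this level, and their median difference was -0.01. Among the markers, the median difference was -0.07 for precursors, -0.01 for astrocytes, -0.05 for microglia, -0.05 for endothelial cells, -0.08 for inhibitory neurons, -0.04 for excitatory neurons and 0.01 for mural cells. Excitatory markers ran between 10.69 and 10.78 on CSD arrays, against 10.69 and 10.83 on HC arrays, so the tissue carried cortical markers in both groups. The part of these markers in the values of the phosphodiesterases was not tested beyond the fit with oligodendrocyte markers.

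The 5 genes that varied most like Pde8a over the 12 arrays, with groups centred, were Adssl1 (r = 0.94), which makes a precursor of AMP in muscle, the muscarinic receptor gene Chrm3 (r = 0.923), Tnfaip6 (r = 0.919), the protease gene Blmh (r = 0.918) and Desi1 (r = 0.917). Of its 20 nearest genes, 14 were lower in CSD at an unadjusted p, against 6.52% of all genes, and 3 were markers of mature oligodendrocytes. The 20 nearest genes of Pde1a, which had no detectable group difference, also held 14 such genes, and 6 such markers. Among the 5 genes nearest to Pde8a, Adssl1 differed by -0.34 (limma adjusted p = 0.0673). Tnfaip6, a protein of the hyaluronan matrix, differed by -0.63 (limma adjusted p = 0.121). Chrm3 differed by -0.05, Blmh by -0.10 and Desi1 by -0.15. The genes nearest to Pde10a were Stard5 (r = 0.946), whose product binds sterols, the sphingomyelin synthase gene Sgms1 (r = 0.928), Timp3 (r = 0.924), an inhibitor of metalloproteinases, the acyltransferase gene Gpam (r = 0.904) and the ubiquitin ligase gene Cbl (r = 0.901), and 2 of its 20 nearest genes were striatal markers. Pde7b, another cAMP-specific phosphodiesterase, was the sixth nearest to Pde10a (r = 0.901) and is named here after its values were seen. The correlations describe these 12 arrays, and nothing is drawn from them about shared control.

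Pde8a and Pde4b are the genes whose groups did not overlap, and the 250 bases before 1 annotated start of each are shown from RefSeq (GRCm38.p6), 5′ to 3′, with the core of the cAMP response element, TGACG or its reverse complement CGTCA, in capitals. Pde8a has 1 annotated start in the table and Pde4b has 4, of which the 1 with the core is shown and the other 3 lack it. Transcription factors of the CREB family bind this element, and cAMP signals act through them.
Pde8a (chr7:81213015-81213264, + strand): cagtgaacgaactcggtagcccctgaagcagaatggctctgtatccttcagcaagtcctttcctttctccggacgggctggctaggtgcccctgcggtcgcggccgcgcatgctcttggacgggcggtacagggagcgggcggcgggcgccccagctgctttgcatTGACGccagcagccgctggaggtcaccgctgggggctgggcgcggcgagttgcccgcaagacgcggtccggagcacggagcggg
Pde4b (chr4:102421305-102421554, + strand): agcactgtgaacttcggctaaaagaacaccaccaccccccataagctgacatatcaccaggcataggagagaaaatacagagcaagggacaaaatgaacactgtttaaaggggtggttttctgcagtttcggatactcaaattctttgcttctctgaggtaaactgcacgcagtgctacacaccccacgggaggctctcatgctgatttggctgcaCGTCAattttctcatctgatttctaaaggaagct
The core starts 84 bases before the start of Pde8a and, as the reverse complement, 34 bases before that of Pde4b. The Pde8a window holds 68.8% G or C and 27 CpG pairs, and the Pde4b window 46.0% and 5. Windows from 250 bases before to 50 after a start were given for 9 of the 10 genes, 28 in all. The full element TGACGTCA, searched on both strands, was in 0 of the 28 and in 1.79% of 32851 windows of all genes. The core, which is also part of the full element, was in 6 of the 28, each of a different gene, and in 20.8% of all windows. A match of letters is a description and not a binding site.

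The 12 other phosphodiesterases measured, out of 13 listed, showed 6 lower and 6 higher means in CSD, where 57.1% of all genes had a lower mean. Pde1c, another calcium-dependent enzyme, was the only one with an unadjusted p under 0.05, at -0.15 (SE 0.07, adjusted p = 0.558). The next was Pde6g, the inhibitory subunit of the retinal enzyme, at 0.15 (SE 0.07, adjusted p = 0.64). None passed with the fold limit.

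**Figure D4:**
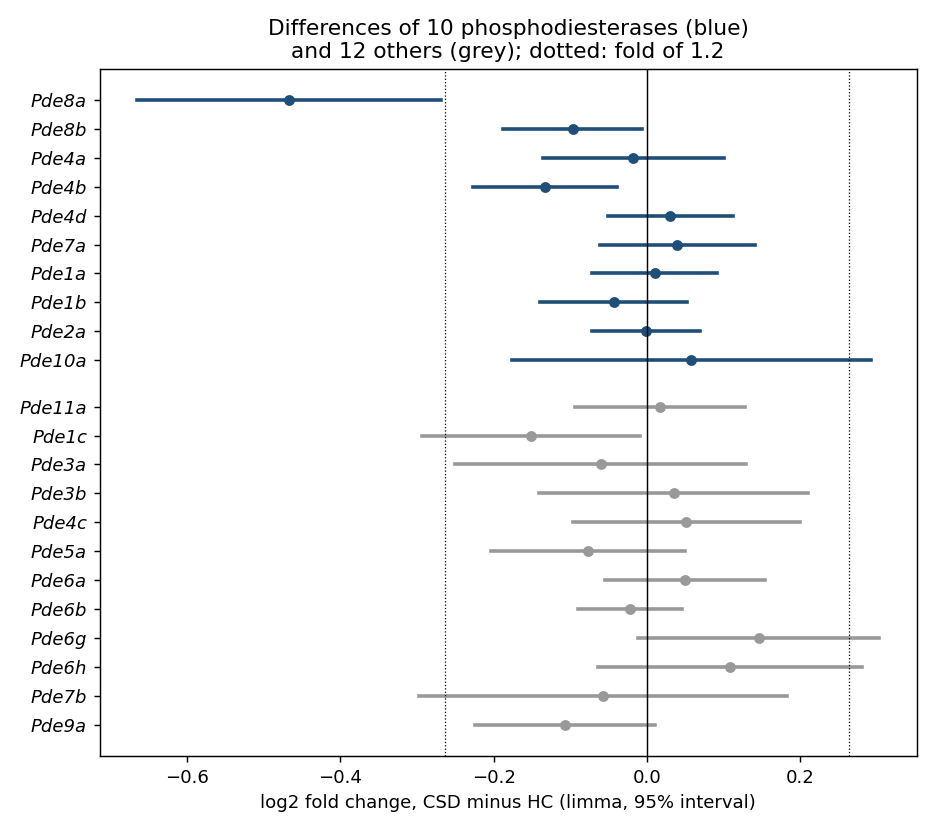
Log2 fold changes, CSD minus HC, with their 95% limma intervals for the 10 phosphodiesterases (blue, above) and the 12 others measured (grey, below), dotted lines marking a fold of 1.2. Only the interval of Pde8a, -0.67 to -0.27, lies wholly past a dotted line.

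Across the remaining cyclic nucleotide pathway, including those 12 genes, 72 genes were measured in 8 lists. Of these 40 had a lower and 32 a higher mean in CSD, 2 were lower and 1 was higher at an unadjusted p, and 0 passed with the fold limit. The median difference was -0.02. Over all genes, 57.1% had a lower mean, and 6.52% were lower and 1.89% higher at an unadjusted p. The enzymes that make the messengers had no common direction. Among 9 adenylyl cyclases, 0 passed, with Adcy2 at -0.06 (adjusted p = 0.659) and Adcy1 at 0.06 (adjusted p = 0.83). Among 9 guanylyl cyclases and receptors of that kind, Gucy1a2, a subunit of the cyclase that nitric oxide stimulates, was higher by 0.18 (SE 0.07, adjusted p = 0.49), and Npr1, the receptor of atrial natriuretic peptide, had -0.09 (adjusted p = 0.746).

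Of the proteins that act downstream of the messengers, 1 passed at an unadjusted p, the coactivator gene Crtc3. Among 10 genes of cyclic nucleotide-dependent kinases, Prkar2a, a regulatory subunit of protein kinase A, had -0.10 (adjusted p = 0.654) and Prkg1, a kinase that cGMP activates, had 0.06 (adjusted p = 0.774). Among 8 exchange factors and channels, the pacemaker channel gene Hcn2 had -0.09 (adjusted p = 0.746) and Cngb1 had 0.12 (adjusted p = 0.763). Among 10 A-kinase anchoring proteins, which hold protein kinase A in place, Akap7 had -0.09 (adjusted p = 0.734) and Akap13 had 0.09 (adjusted p = 0.761). In the CREB family and its coactivators, Crtc3, a coactivator that cAMP signals release into the nucleus, was lower, with a difference of -0.15 (SE 0.05, unadjusted limma p 0.00723, adjusted p = 0.368), and Crtc2 had -0.09 (adjusted p = 0.759). All 6 measured G protein genes of adenylyl cyclase had lower means, as had 57.1% of all genes, and 0 passed. Gnai2 had -0.07 (adjusted p = 0.7) and Gnai1 -0.06 (adjusted p = 0.757).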

How the data were processed

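The mPFC of 6 CSD and 6 HC mice was measured with an Affymetrix array for each mouse. The values are on a log2 scale, as the authors deposited them. Per the submitters' processing notes they come from RMA (background correction, normalization between arrays, 1 value for the probes of a set) in Affymetrix Expression Console. Versions of both are not given in the sources read. The series table holds 35556 probe sets. Arrays have no read depth, and their number limits the precision.

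The 20th percentile of all values, 5.75, was taken as noise, since the methods state no value. Probe sets with no value above it (5718) were left out, which left 29838, where 4.67% of the values were below noise and set to it. Groups were taken from the sample labels and compared two-sided in R 4.3.3 by limma 3.58.1 with lmFit and eBayes, adjusting over these probe sets by Benjamini and Hochberg. Single genes were also compared with exact permutation tests over all splits into 6 and 6 (SciPy 1.17.1 in Python 3.11.15 for correlations). Probe sets were named from the platform annotation: 21789 had 1 gene, 1621 several and 12146 none. Named genes are the 10 phosphodiesterases, the 2 genes with the smallest p in each pathway list, the 3 such markers of mature oligodendrocytes and striatal neurons, and the 5 nearest genes of Pde8a and Pde10a. Pde7b as a neighbour of Pde10a was added after its value was seen. The genes, gene lists and tests were chosen with earlier results of these data known. Array medians lay between 7.50 and 7.69, and the median correlation of an array with its group was at least 0.991, lowest on HC replicates 6 and 2.

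Alternatives were the methods' t-test, no fold limit, neither floor nor filter, noise raised by 1 log2 unit, probe sets with 1 gene only, arrays centred or quantile normalized, robust estimation with a mean-variance trend, array weights, a block for the replicate number, the mean over probe sets, and leaving out each array. A fit without HC replicates 2 and 6, the oligodendrocyte covariate, the overlap under other scalings and all correlations with marker lists were added after seeing the data. Code was tested on simulated data. Figures were drawn with matplotlib 3.10.9.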

Additional observations from a re-analysis of the deposited data

Results flagged for a closer look

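Of the 20 groups of 6 arrays tested for a lone extreme, 1 stood out. HC replicate 6 had the highest Pde4b value of its group, 10.76, with the next HC array at 10.65 and the lowest at 10.60. Its gap to the next array took a share of 0.656 of the group's range, above Dixon's 95% critical value for 6 samples. Chance alone gives about 1 in 20 groups. The difference of Pde4b ranged between -0.15 and -0.11 when each array was left out in turn.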

How the results depend on the processing

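Pde8a kept its direction in all 25 alternatives and its unadjusted call in 24, the exception being the oligodendrocyte covariate (-0.07), which left 0 of the 10 genes called. Pde8b, Pde4b and Pde1b also kept their direction in all 25. Differences near 0 changed sign. Pde1a gave -0.0036 with centred arrays. Pde2a gave 0.00045 after quantile normalization, 0.024 with array weights, 0.021 without HC replicates 2 and 6 together and 0.024 with the covariate. Pde4a gave 0.0051 with array weights and 0.022 without those HC replicates, and Pde10a gave -0.047 with the covariate. Leaving out each array gave differences of -0.0068 to 0.028 for Pde1a, -0.014 to 0.010 for Pde2a, -0.058 to 0.0095 for Pde4a and -0.021 to 0.12 for Pde10a. The cause of these changes was not tested.

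With no fold limit 3 of the 10 genes were lower, and over all genes 1151 were lower and 334 higher. The 106 lower genes became 414 with the covariate, and the 14 higher genes became 9 with centred arrays and 72 with the covariate. Leaving out each array gave 8 to 26 higher genes, namely 26 when CSD replicate 6 was left out, 9 for CSD replicate 7 and 8 for CSD replicate 9. Probe sets called at an adjusted p numbered 21 when only those with 1 gene were tested, 1 after quantile normalization and 14 with a trend and robust estimation, and 0 of the 10 phosphodiesterases were called in any alternative. The replicate block uses only the shared numbers 2 and 6, whose deviations had correlations of -0.21 and -0.036. The labels do not say what a shared number means, and these correlations cannot settle it. Elsewhere the samples were treated as unpaired. With the replicate block 192 genes were lower, and Pde8a had -0.47 with an unadjusted limma p of 0.0471, just under the limit. In that fit Pde8b and Pde4b had unadjusted p values of 0.142 and 0.217, and Pde4d (-0.072), Pde7a (-0.081) and Pde10a (-0.25) changed sign. The number of arrays, 6 per group, limits what can be detected, and the 95% intervals give the differences that the data allow.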
